A study of Drosophila melanogaster with 48 samples.

Results

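The 6 *Drosophila* genes described here were chosen because their mean level differed more than 2-fold between wild type and *Ptth* mutants, always in one direction, at all 8 stages sampled. They are *Klp54D*, *CG30054*, *Uhg1*, *CR44417*, *CG14715* and *CG3397*, which are 6 of the 17558 genes measured and 6 of the 12282 genes that reached 3 FPKM in at least 1 library (FPKM is fragments per kilobase of gene, scaled to the depth of the library). They were chosen by this difference in FPKM between genotypes at each stage, so the difference is described below with no test. *Klp54D*, *CR44417* and *CG3397* were higher in mutants, and *CG30054*, *Uhg1* and *CG14715* were lower.

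The libraries held poly(A) RNA of pooled whole animals, in 16 groups of 3 biological replicates and 48 libraries in all. Wild type is the line labelled wOB and the mutant the line labelled ptth120BC2. Wild-type larvae were taken 72 h (L3E) and 96 h (L3L) after egg laying, and mutant larvae 96 h (L3E) and 120 h (L3L) after it. Both genotypes were also taken as white prepupae (WP), as pupae of 1, 2, 3 and 4 days (P1 to P4) and as adults 1 to 3 h after emergence (A0). The sex of the pools is not given. In RNA of whole animals, fewer cells of a type and less RNA per cell cannot be told apart. Replicates are pools labelled as biological replicates, and the errors below cover the spread between these pools only. The study describes a *Ptth* mutant with a small deletion in the last exon that was backcrossed before lifespan was measured. The labels do not say whether ptth120BC2 had that same backcross. With 1 wild-type line and 1 mutant line, the *Ptth* allele and the strain background cannot be told apart, and none of the values below separates them.

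PTTH is a neuropeptide from a few brain neurons. It acts through the receptor Torso on the prothoracic gland, where it promotes ecdysone synthesis, and larvae without it pupariate late. The 6 genes include a motor protein, a signalling protein, a pair of enzymes and a pair of noncoding RNAs.

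Libraries held 16712549 to 29784621 reads on genes, with a median of 21125884. *Ptth* itself (FBgn0013323, 2L: 575711 to 576896) ranged from 0 to 3.42 FPKM in wild type and from 0.121 to 4.97 FPKM in mutants. A small deletion leaves most of the transcript to be counted, so this level checks nothing. Sex and age markers moved in some libraries. The summed level of 18 testis genes was 15.0 to 18.3 FPKM in wild type and 101 to 158 FPKM in mutants at L3E, and 74.8 to 106 FPKM against 236 to 346 FPKM at L3L. It was 472 to 751 FPKM against 776 to 1115 FPKM at P1, and 1774 to 2038 FPKM against 920.1 to 1569 FPKM at P3. At WP, P2 and P4 the ranges of the genotypes overlapped. Its part in the differences was not tested. The same sum at A0 was 10.9 to 11.6 FPKM in wild type, with 9 of the 18 at 0, and 10.7, 11.5 and 77.0 FPKM in mutants. The high library was replicate 3, whose level of *roX1*, a noncoding RNA of male dosage compensation, was 1.55 FPKM against 0.158 to 0.282 in the other 5. In larvae *roX1* was lower in wild type, at 25.7 to 30.5 FPKM against 31.2 to 41.4 FPKM in mutants at L3E and 27.3 to 43.4 FPKM against 51.1 to 67.9 FPKM at L3L. At P3, *roX1* was 59.0 to 67.5 FPKM in wild type and 26.7, 31.7 and 46.5 FPKM in mutants. Its ranges overlapped at the other stages, and its part in the differences was not tested. At P4 *roX1* was 27.8 to 35.7 FPKM in wild type and 23.8 to 31.8 FPKM in mutants, far above its A0 levels. The testis sum at P4 was 1221 to 1677 FPKM and 1058 to 1380 FPKM, also far above A0. The part of these drops in changes from P4 to A0 was not tested. Without mutant replicate 3, the log2 differences of the 6 genes at P3 and A0 changed by a factor of at most 1.09. The 3 yolk protein genes are female markers. At L3L they summed to 19.5 to 29.3 FPKM in wild type and 1.10 to 2.14 FPKM in mutants. At P1 they summed to 7.47 to 8.27 FPKM against 9.88 to 11.1 FPKM. At P2 the sums were 3.87 to 4.81 FPKM against 3.31 to 3.57 FPKM. Their ranges overlapped at the other stages, and their part in the differences was not tested. At L3E the 6 larval serum and fat body genes summed to 1930 to 5342 FPKM in wild type and 37799 to 41194 FPKM in mutants, while wild-type L3L larvae had 36369 to 40066 FPKM. Mutant L3L larvae had 20324 to 29818 FPKM. The 6 salivary glue genes summed to 1.98 to 2.93 FPKM in wild type and 87.9 to 135 FPKM in mutants at L3E. At L3L they summed to 6370 to 6908 FPKM against 10668 to 13423 FPKM, so larvae of equal hours were far apart in these genes. The part of either set in the larval differences was not tested, and values at equal hours are given below.

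Coordinates are those of the deposited table (build BDGP6). *Klp54D* (FBgn0263076) lies on 2R at 17557031 to 17563285, *Uhg1* (FBgn0045800) at 17699097 to 17703344 and *CR44417* (FBgn0265590) at 17869027 to 17869857, all on the plus strand. *CG30054* (FBgn0050054) is on the same arm at 12623726 to 12625352, plus strand. *CG14715* (FBgn0037930) lies on 3R at 11674221 to 11674923 on the plus strand, and *CG3397* (FBgn0037975) at 11983098 to 11984541 on the minus strand. None lies on 2L, the arm of *Ptth*.

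**Figure D1:**
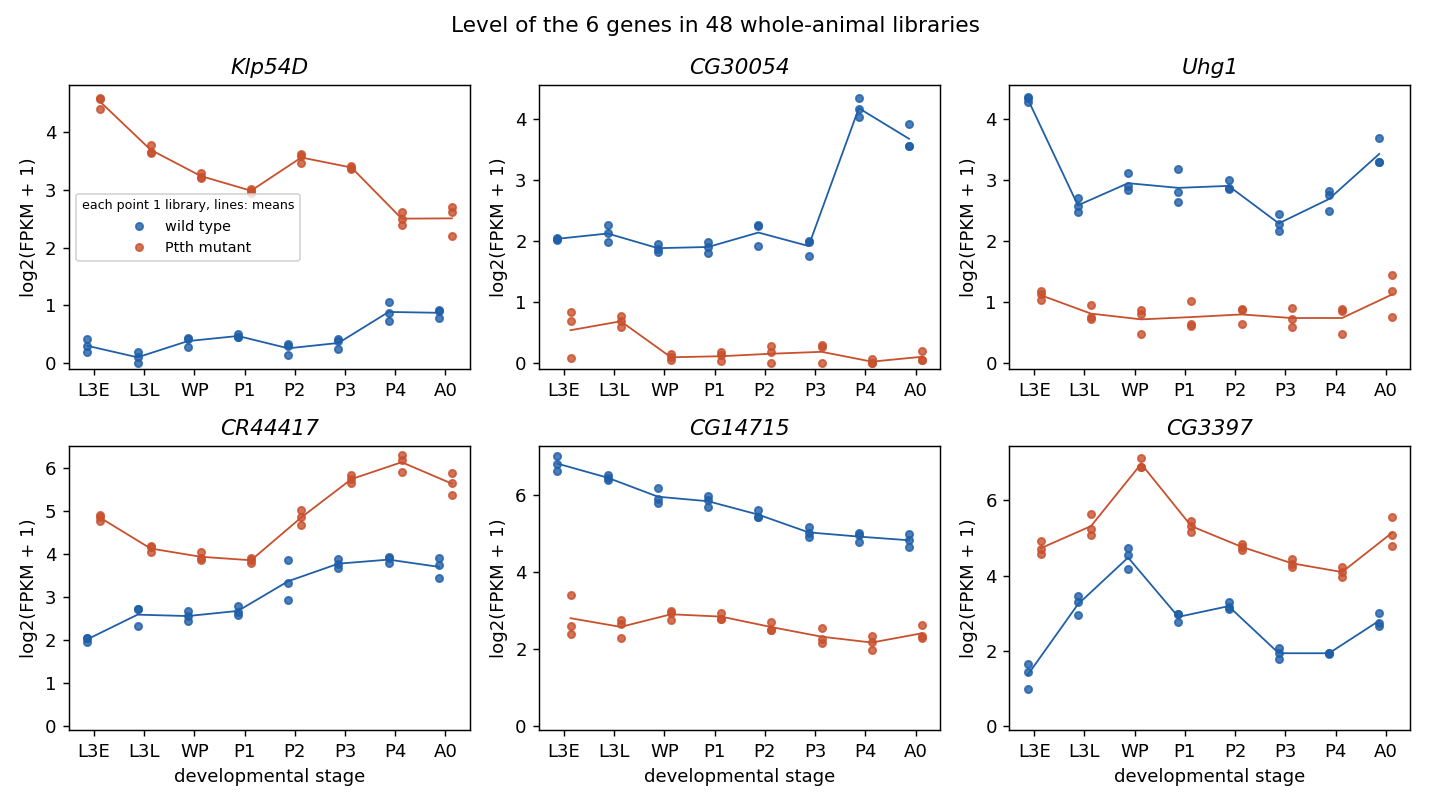
Level of each gene in all 48 libraries as log2(FPKM + 1) against developmental stage, with 1 point per library and lines through the means of 3 libraries. Wild-type and mutant points do not overlap at any stage for any of the 6 genes.

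*Klp54D* encodes a motor protein of the kinesin family, proteins that move along microtubules. It was at most 1.10 FPKM in wild type and higher in every mutant library. At L3E wild type had 0.342, 0.145 and 0.224 FPKM and mutants 22.8, 22.9 and 20.0 FPKM. At L3L the values were 0.0843, 0 and 0.148 FPKM in wild type, from 10 reads in 3 libraries, and 11.4, 12.6 and 11.6 FPKM in mutants, from 1626 reads. The larval groups were thus far apart, and the wild-type values rest on few reads. White prepupae had 0.361, 0.219 and 0.342 FPKM in wild type and 8.73, 8.29 and 8.24 FPKM in mutants. At P1 the wild type had 0.365, 0.374 and 0.427 FPKM against 7.09, 6.89 and 6.72 FPKM. At P2 it had 0.261, 0.231 and 0.108 FPKM against 11.2, 11.01 and 10.1 FPKM. Every mutant library of these stages was above every wild-type one. At P3 wild type had 0.185, 0.307 and 0.345 FPKM and mutants 9.66, 9.21 and 9.41 FPKM. At P4 wild type had 0.662, 1.10 and 0.822 FPKM and mutants 4.62, 5.12 and 4.26 FPKM. At A0 wild type had 0.876, 0.900 and 0.726 FPKM and mutants 3.59, 5.13 and 5.50 FPKM. The groups moved closest at P4 and A0, where wild type was at its highest and mutants at their lowest.

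On the scale of log2(FPKM + 1), mutant minus wild type (± SE, 3 libraries each), *Klp54D* differed by 4.21 ± 0.090 at L3E, 3.58 ± 0.071 at L3L, 2.85 ± 0.056 at WP, 2.51 ± 0.028 at P1, 3.29 ± 0.072 at P2, 3.03 ± 0.058 at P3, 1.61 ± 0.12 at P4 and 1.63 ± 0.16 at A0. The added 1 shrinks the difference of a gene this low in wild type. From summed reads, the mutant level was 148 times that of wild type at L3L (95% interval 80.1 to 308, exact binomial, counting error only) and 5.37 times at P4 (4.40 to 6.61). In wild type, the order of stages ran from P4 (0.860 ± 0.220 FPKM) and A0, which overlapped, to L3L (0.0774 ± 0.0742 FPKM), with means given here and below ± SD (n = 3). In mutants it ran from L3E (21.9 ± 1.63 FPKM) down to P4 (4.67 ± 0.431 FPKM). In that mutant order, A0 and P4 overlapped and no other neighbours did.

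*CG30054* carries the domain of G protein alpha subunits, which relay signals from receptors at the membrane. It was present in wild type and near 0 in mutants. L3E libraries had 3.11, 3.14 and 3.07 FPKM in wild type and 0.0629, 0.782 and 0.621 FPKM in mutants. L3L libraries had 2.94, 3.79 and 3.39 FPKM in wild type and 0.716, 0.508 and 0.609 FPKM in mutants. These were the stages with the highest mutant values, and 1 mutant L3E library stood about as low as the pupal ones. For WP the values were 2.55, 2.86 and 2.66 FPKM in wild type and 0.0676, 0.0355 and 0.103 FPKM in mutants. For P1 they were 2.76, 2.501 and 2.98 FPKM against 0.0932, 0.0250 and 0.129 FPKM. For P2 they were 2.77, 3.73 and 3.81 FPKM against 0, 0.210 and 0.138 FPKM. Mutant libraries of these 3 stages held only 6, 9 and 10 reads in all, against 263, 338 and 306 in wild type. For P3 the values were 2.39, 3.02 and 2.97 FPKM in wild type and 0.223, 0.201 and 0 FPKM in mutants. For P4 they were 19.3, 17.0 and 15.3 FPKM against 0, 0.0507 and 0 FPKM. For A0 they were 10.8, 10.8 and 14.1 FPKM against 0.0407, 0.0343 and 0.153 FPKM. The gene rose in wild type from P3 to P4, while at P4 the mutants held 1 read in 3 libraries.

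The difference of *CG30054* was -1.50 ± 0.23 at L3E, -1.44 ± 0.098 at L3L, -1.79 ± 0.044 at WP, -1.79 ± 0.068 at P1, -1.99 ± 0.14 at P2, -1.73 ± 0.12 at P3, -4.16 ± 0.095 at P4 and -3.57 ± 0.13 at A0. At P4 the wild-type level from summed reads was 1154 times the mutant one, with a counting interval of 207 to 45638 because the mutant count is 1. At A0 it was 173 times (73.6 to 533). In wild type P4 (17.2 ± 2.01 FPKM) stood above A0 (11.9 ± 1.93 FPKM), and A0 above all other stages. Of the rest, L3E stood above P3 with no overlap, and the other neighbours in the order overlapped. In mutants all neighbouring stages in the order overlapped. The next gene on the chromosome, *CG17760*, is also a G protein alpha subunit gene, 2.08 kb away, and *Galphaq* starts 10.99 kb before *CG30054*. *CG17760* was lower in mutants, passing at 2 of 8 stages, with differences of -1.65 to -0.23. *Galphaq* differed by -0.11 to 0.24. Reads shared between such copies were not tested.

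*Uhg1* is a noncoding host gene of small nucleolar RNAs (snoRNAs), which guide chemical modification of ribosomal RNA and are cut from its introns. It has 17 exons and holds 16 snoRNA genes, none of which overlaps an exon. It shares 10 bases at its end with opposite-strand genes. Its RNA was lower in mutants at every stage. At L3E wild type had 19.3, 18.5 and 19.6 FPKM and mutants 1.26, 1.20 and 1.04 FPKM. At L3L the values were 4.95, 4.58 and 5.53 FPKM in wild type and 0.652, 0.695 and 0.931 FPKM in mutants. The wild-type level thus dropped between the larval stages, while the mutant one was low at both. In white prepupae the values were 7.64, 6.15 and 6.47 FPKM in wild type and 0.747, 0.821 and 0.397 FPKM in mutants. P1 pupae had 5.23, 8.07 and 5.96 FPKM against 0.523, 0.553 and 1.03 FPKM. P2 pupae had 6.21, 6.98 and 6.31 FPKM against 0.847, 0.551 and 0.835 FPKM. The highest mutant library of these stages, at 1.03 FPKM, lay below the lowest wild-type one, at 5.23 FPKM. P3 pupae had 3.48, 3.84 and 4.42 FPKM against 0.644, 0.508 and 0.875 FPKM. P4 pupae had 4.63, 5.74 and 6.09 FPKM against 0.399, 0.799 and 0.848 FPKM. Adults at A0 had 12.0, 8.81 and 8.83 FPKM against 1.71, 1.26 and 0.697 FPKM. Wild-type replicate 1 stood above the other A0 libraries, and the groups stayed apart.

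*Uhg1* differed by -3.22 ± 0.049 at L3E, -1.78 ± 0.096 at L3L, -2.23 ± 0.14 at WP, -2.12 ± 0.21 at P1, -2.11 ± 0.094 at P2, -1.55 ± 0.12 at P3, -1.95 ± 0.16 at P4 and -2.30 ± 0.24 at A0. Wild-type L3E (19.2 ± 0.582 FPKM) stood above A0 (9.87 ± 1.82 FPKM), which stood above WP, and P3 (3.91 ± 0.474 FPKM) was lowest. From WP to L3L the neighbours in the order overlapped. In mutants only L3E and L3L, neighbours in the order, did not overlap. The snoRNAs inside the introns were barely seen by these poly(A) libraries: 12 of the 16 had any read, with 31 reads in the 24 wild-type libraries and 48 in the 24 mutant ones. Their level could therefore not be compared with that of the host at this depth.

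*CR44417* is a noncoding RNA of 1 exon that lies inside *Mapmodulin*, on the opposite strand, with no overlap with the exons of that gene. Whether the counting used strand is not given in the sources used here. L3E larvae had 3.12, 2.87 and 3.17 FPKM in wild type and 29.1, 28.3 and 26.2 FPKM in mutants. L3L larvae had 5.64, 4.04 and 5.56 FPKM in wild type and 16.9, 15.5 and 17.4 FPKM in mutants. Mutant larvae were higher in every library. White prepupae had 4.94, 5.40 and 4.41 FPKM against 15.6, 14.0 and 13.6 FPKM. At P1 the levels were 5.02, 5.98 and 5.27 FPKM in wild type and 13.5, 14.1 and 13.01 FPKM in mutants. At P2 the levels were 9.003, 6.60 and 13.6 FPKM in wild type and 31.7, 24.6 and 28.2 FPKM in mutants. The highest wild-type P2 library lay as high as the mutant libraries of WP and P1, but below those of its own stage. At P3 the levels were 12.7, 11.8 and 13.9 FPKM in wild type and 56.3, 52.8 and 49.8 FPKM in mutants. At P4 the levels were 14.1, 12.8 and 14.2 FPKM in wild type and 59.8, 78.1 and 72.9 FPKM in mutants. At A0 the levels were 9.97, 12.4 and 14.2 FPKM in wild type and 40.7, 58.6 and 49.4 FPKM in mutants. No mutant library of these stages was below 40.7 FPKM and no wild-type one above 14.2 FPKM.

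For *CR44417* the difference was 2.83 ± 0.055 at L3E, 1.54 ± 0.14 at L3L, 1.38 ± 0.090 at WP, 1.18 ± 0.071 at P1, 1.49 ± 0.29 at P2, 1.97 ± 0.083 at P3, 2.27 ± 0.12 at P4 and 1.94 ± 0.20 at A0. The value at P1 is the smallest of all 48 differences of the 6 genes. The mutant mean was 9.12 times the wild-type mean at L3E, 2.496 times at P1 and 5.13 times at P4. In both genotypes P4 was highest, with 13.7 ± 0.787 FPKM in wild type and 70.3 ± 9.46 FPKM in mutants. P3 and A0 overlapped in both. The lowest stage was L3E in wild type and P1 in mutants.

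*CG14715* carries the domain of FKBP-type prolyl isomerases, enzymes that help proteins fold, and shares 4 bases with *CG18476* on the opposite strand. It had the highest level of the 6 genes in wild type and was lower in mutants at every stage. At L3E there were 128, 97.1 and 109 FPKM in wild type and 9.58, 5.10 and 4.24 FPKM in mutants. At L3L there were 84.9, 89.6 and 82.3 FPKM in wild type and 3.92, 5.78 and 5.33 FPKM in mutants. Mutant replicate 1 at L3E was the highest mutant library of all and still far below wild type. At WP there were 70.9, 57.9 and 54.2 FPKM against 5.80, 6.70 and 6.96 FPKM. At P1 there were 49.9, 61.1 and 56.8 FPKM against 6.69, 5.92 and 5.92 FPKM. At P2 there were 42.0, 41.6 and 47.5 FPKM against 5.56, 4.65 and 4.65 FPKM. Every wild-type library of P2 lay below those of WP and P1. At P3 there were 31.1, 34.5 and 29.1 FPKM against 3.80, 4.86 and 3.44 FPKM. At P4 there were 30.1, 31.3 and 26.1 FPKM against 2.92, 4.08 and 3.57 FPKM. At A0 there were 27.5, 24.0 and 30.3 FPKM against 3.85, 4.02 and 5.18 FPKM. Over all stages the lowest wild-type library, at 24.0 FPKM, was above the highest mutant one, at 9.58 FPKM.

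Its differences were -4.00 ± 0.33 at L3E, -3.86 ± 0.14 at L3L, -3.04 ± 0.13 at WP, -2.99 ± 0.098 at P1, -2.91 ± 0.094 at P2, -2.70 ± 0.14 at P3, -2.74 ± 0.13 at P4 and -2.41 ± 0.14 at A0. The wild-type mean of *CG14715* was 17.6 times the mutant mean at L3E and 6.28 times at A0. Wild-type means followed the order of development, from 111 ± 15.3 FPKM at L3E to 27.3 ± 3.17 FPKM at A0, with overlap between WP and P1 and among P3, P4 and A0. In mutants only P1 and L3L, neighbours in the order, did not overlap.

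*CG3397* carries the domain of aldo-keto reductases, enzymes that reduce aldehydes and ketones. It peaked in white prepupae in both genotypes and was higher in mutants at every stage. L3E values were 1.71, 1.01 and 2.16 FPKM in wild type and 29.3, 24.9 and 22.7 FPKM in mutants. L3L values were 6.78, 8.92 and 9.92 FPKM in wild type and 36.6, 32.9 and 48.4 FPKM in mutants. In both genotypes every L3L library was above every L3E one. WP values were 25.4, 22.5 and 17.0 FPKM in wild type and 117, 117 and 139.5 FPKM in mutants. P1 values were 6.85, 6.87 and 5.84 FPKM against 42.5, 35.0 and 39.1 FPKM. P2 values were 7.93, 7.61 and 8.92 FPKM against 27.8, 26.0 and 24.8 FPKM. White prepupae were highest in both genotypes, and the wild-type peak overlapped the lowest mutant levels of other stages. P3 values were 2.89, 2.47 and 3.21 FPKM against 19.0, 20.6 and 17.8 FPKM. P4 values were 2.80, 2.84 and 2.89 FPKM against 17.7, 16.02 and 14.7 FPKM. A0 values were 5.32, 7.06 and 5.71 FPKM against 46.0, 33.1 and 26.5 FPKM. The 3 mutant A0 libraries were spread more widely than those of P3 and P4.

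Between genotypes *CG3397* differed by 3.36 ± 0.22 at L3E, 2.07 ± 0.22 at L3L, 2.49 ± 0.18 at WP, 2.41 ± 0.10 at P1, 1.57 ± 0.077 at P2, 2.39 ± 0.098 at P3, 2.15 ± 0.075 at P4 and 2.34 ± 0.25 at A0. The mutant mean was 15.8 times the wild-type mean at L3E and 3.22 times at P2. WP had 21.6 ± 4.28 FPKM in wild type and 125 ± 12.95 FPKM in mutants, above all other stages in each. L3E was lowest in wild type and P4 in mutants.

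**Figure D2:**
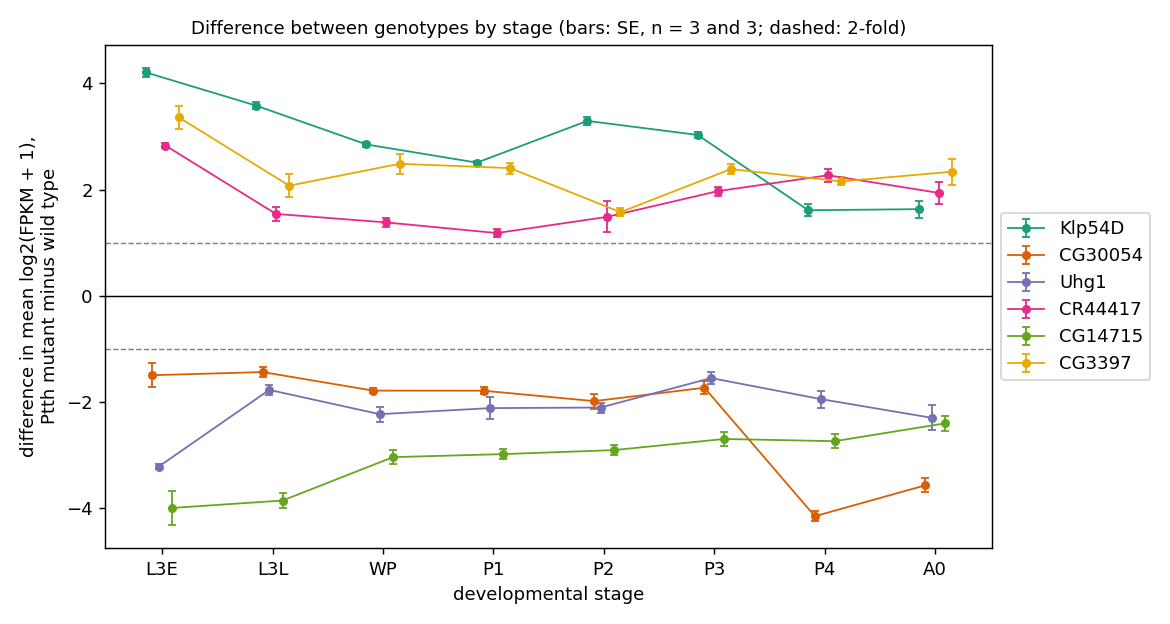
Difference in mean log2(FPKM + 1), mutant minus wild type, against developmental stage, with bars for the SE from 3 and 3 libraries and dashed lines at 2-fold. All 48 differences lie beyond the dashed lines, from 1.18 for *CR44417* at P1 to 4.21 for *Klp54D* at L3E.

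At 96 h after egg laying, mutant L3E larvae can be set against wild-type L3L larvae. The groups did not overlap for any of the 6 genes. The share of all tested genes that did not overlap here was not counted, so this does not set the 6 apart. This comparison was added after the data were seen and uses libraries that the rule used. The difference was 4.41 ± 0.084 (SE) for *Klp54D*, -1.59 ± 0.24 for *CG30054* and -1.47 ± 0.078 for *Uhg1*. It was 2.26 ± 0.14 for *CR44417*, -3.63 ± 0.31 for *CG14715* and 1.49 ± 0.18 for *CG3397*. Set against L3E by stage name, the size at equal hours was smaller for *CG3397* (3.36 at L3E), *Uhg1* (-3.22), *CR44417* (2.83) and *CG14715* (-4.00). It was larger for *Klp54D* (4.21 at L3E) and *CG30054* (-1.50). Whether these changes exceed the spread was not tested.

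By means alone, the rule returned 9 of the 12282 genes (0.0733%). The other 3 were *CG33465* (smallest difference 1.08), *snoRNA:U3:54Ab* (1.02), a U3 snoRNA gene, and *Tep4* (1.02), a gene of the thioester protein family of immunity. *snoRNA:U3:54Ab* was low, with a mean over stages of 0.0836 FPKM in wild type and 2.48 FPKM in mutants. The smallest difference of the 6 was 2.41 for *CG14715*, 1.61 for *Klp54D*, 1.57 for *CG3397*, 1.55 for *Uhg1*, 1.44 for *CG30054* and 1.18 for *CR44417*. Just outside the limit of 1 lay *CG5359* at 0.90 and *GstE1*, a glutathione transferase gene, at 0.88. All 6 genes had libraries that did not overlap between genotypes at each of the 8 stages, as 76 of the tested genes did (0.619%). Pooled over stages, the 24 wild-type and 24 mutant libraries of *Klp54D*, *CG30054*, *Uhg1* and *CG14715* did not overlap. Another 4 of the tested genes, *mre11*, *CG5961*, *achi* and *CG5359*, did so, 8 in all (0.0651%). *CR44417* ranged from 2.87 to 14.2 FPKM in wild type and from 13.01 to 78.1 FPKM in mutants, and *CG3397* from 1.01 to 25.4 FPKM and from 14.7 to 139.5 FPKM, so these overlapped across stages.

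Variation with stage within a genotype is a measure that the rule did not use. By limma's moderated F test over the 8 stages, with Benjamini-Hochberg adjustment over the tested genes, nearly all tested genes varied in each genotype, so it does not set the 6 apart. *Klp54D* in wild type and *CG30054* and *Uhg1* in mutants were below 3 FPKM in every library and entered the test through the other genotype only, so they are left out here, a choice made after the data were seen. The other 5 genes varied in wild type, as 99.3% of the genes that reached 3 FPKM in wild type did, and the other 4 varied in mutants, against 98.7%. *CG14715* in mutants had an adjusted p of 0.011, and 0.077 without replicate 2.

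Adjacent stages were compared after the data were seen, on the log2(FPKM + 1) scale, on which genes near 0 can change little. In wild type *CG30054* rose by 2.26 from P3 to P4 (limma adjusted p = 6.8e-13), where 19.6% of tested genes changed either way. *Uhg1* fell by 1.75 in wild type from L3E to L3L (adjusted p = 6.1e-10) and *CG3397* rose by 1.87 (adjusted p = 3.2e-09), where 20% changed. *CG3397* rose further from L3L to WP, by 1.24 in wild type (adjusted p = 6.9e-07, 32% of genes changed) and by 1.65 in mutants (adjusted p = 1.4e-08, 19.7%). It then fell by 1.57 in wild type from WP to P1 (adjusted p = 3.6e-08, 16.1%) and fell by 1.65 in mutants (adjusted p = 1.7e-08, 22.6%). It fell by 1.25 from P2 to P3 in wild type (adjusted p = 1.2e-06, 15.3%) and rose by 1.05 from P4 to A0 in mutants (adjusted p = 7.8e-06, 23.8%). The testis sum and *roX1* also fell from P4 to A0, and their part in that step was not tested. All other steps of the 6 genes were below 2-fold, the nearest being *CR44417* in mutants from P1 to P2 at 0.998 on the log2 scale. At the steps where none of the 6 passed, 15.5% of tested genes changed from P1 to P2 and 22.4% from P4 to A0 in wild type. In mutants 15.8% changed from L3E to L3L, 13.3% from P1 to P2, 12.1% from P2 to P3 and 19.1% from P3 to P4. Whether these steps differed between genotypes was not tested.

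Across the 8 stage means, wild type and mutants were compared with Pearson's r, as a description of 8 points. It was 0.86 for *CG3397*, 0.84 for *Uhg1*, 0.79 for *CR44417* and 0.74 for *CG14715*. It was -0.40 for *CG30054* and -0.81 for *Klp54D*. Over all tested genes the median was 0.93. *Klp54D* was near 0 throughout in wild type and *CG30054* in mutants.

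On 2R, *Klp54D* starts 142 kb before *Uhg1* and *Uhg1* 170 kb before *CR44417*, so these 3 genes lie within 312 kb. *CG30054* lies 4933 kb away from *Klp54D*. On 3R, *CG14715* and *CG3397* start 309 kb apart. Within 312 kb on 2R the direction was not shared, with *Uhg1* lower and the genes on both sides of it higher, and the pair on 3R also went opposite ways.

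The 5 nearest genes on each side of each of the 6 gave 60 neighbours, of which 44 could be tested. The 5 that start after *Uhg1* were all snoRNA genes inside it, and none could be tested. Genes beyond the end of *Uhg1* were thus not among its neighbours. Of the 44, 14 (31.8%) differed at any stage (limma, adjusted p under 0.05 and above 2-fold), where 24.8% of all tested genes did. Of the 14, 3 were higher in mutants and 11 lower. Over all tested genes, calls counted once per stage were 2793 higher in mutants and 1835 lower. The neighbour count was 7 without replicate 1 and 8 without replicate 2. Calls over all tested genes fell too, to 1787 higher and 967 lower without replicate 1 and to 1657 and 923 without replicate 2. At 4 or more stages 2 neighbours differed, where 0.537% of all tested genes did, both lower in mutants. They were *PPO1*, a prophenoloxidase gene 18.2 kb from *CR44417* with differences of -4.31 to 0.18, and the noncoding *CR44135*, 5.46 kb from *CG3397* with differences of -1.77 to -0.21. *CG18547* and *CG12224*, aldo-keto reductase genes beside *CG3397*, were each lower in mutants at 1 stage, against the direction of *CG3397*.

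Wider windows held few further genes above 2-fold in one direction at 5 or more stages, a limit that 49 of the tested genes met (0.399%). Within 500 kb of *Klp54D* 2 of 136 other tested genes did, *CR44404* and *snoRNA:U3:54Ab*. Around *CG30054* 1 of 144 did, *achi*, and around *CG3397* 2 of 138 did, *GstD5* and *CG5961*. *CR44404* was also the 1 such gene among 138 around *Uhg1* and among 139 around *CR44417*, and around *CG14715* 0 of 124 did. *CR44404*, a noncoding gene, lies between *Klp54D* and *Uhg1*.

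**Figure D3:**
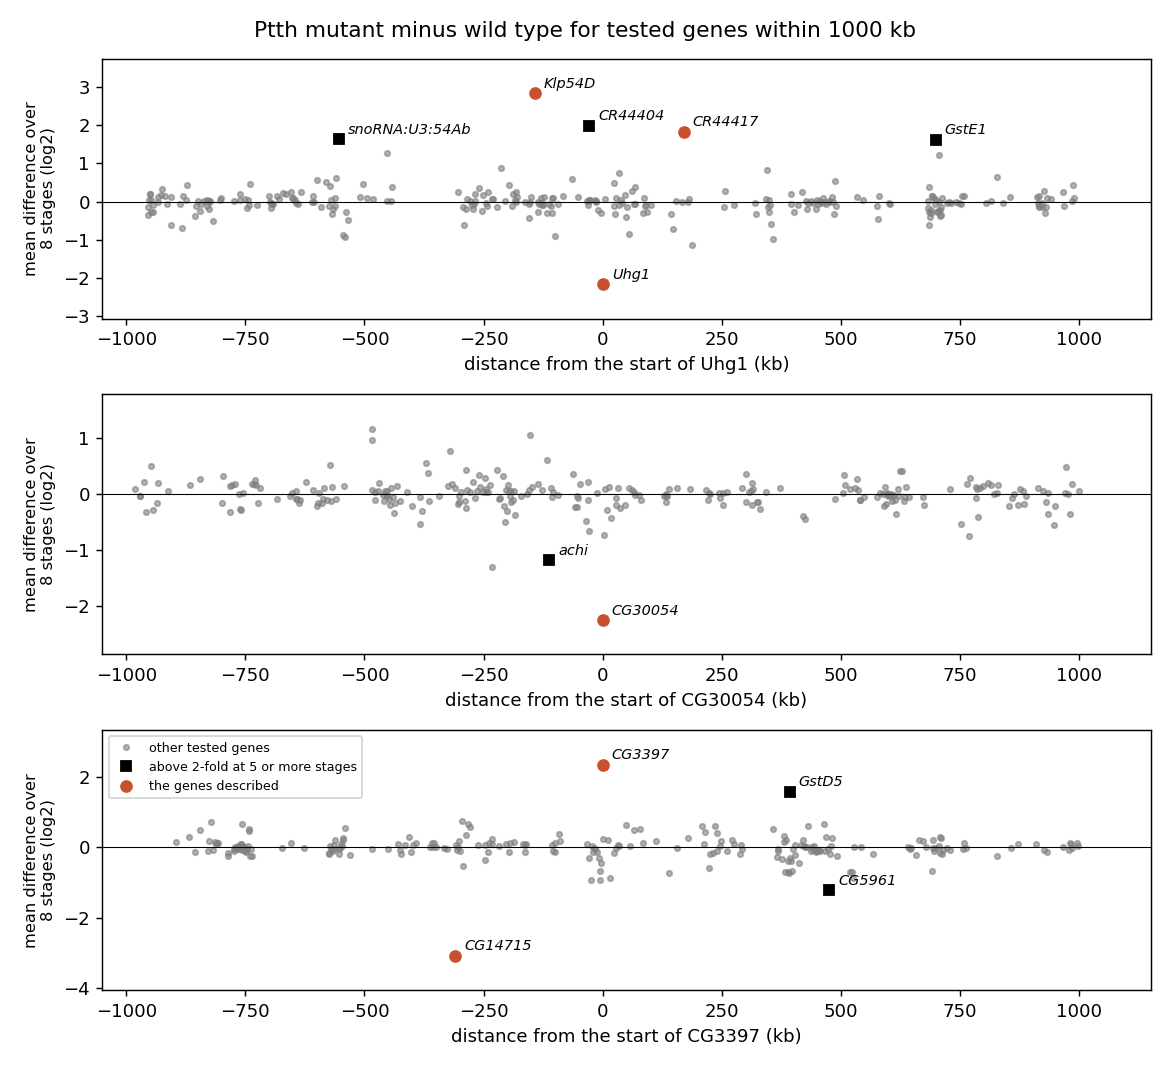
Mean difference over 8 stages (log2, mutant minus wild type) of each tested gene against its distance in kb from the start of *Uhg1*, *CG30054* and *CG3397*, with the 6 genes as large points and other genes above 2-fold at 5 or more stages as squares. The means of the 6 genes run from -3.08 for *CG14715* to 2.84 for *Klp54D*, and most genes around them lie near 0.

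The 49 genes were tallied by chromosome arm, a count made after the values were seen. Arm 2L held 20 (40.8%) and 2R 17 (34.7%), while 18.4% and 20.3% of tested genes lie there. Arm 3R held 6 (12.2%, against 24.8% of tested genes), 3L 4 (8.16%, against 19.7%) and the X chromosome 1 (2.04%, against 15.7%). The Y chromosome, with 12 tested genes, held 1 (2.04%, against 0.0977%), and chromosome 4 held 0 (against 0.66%). The 6 genes described are among those counted on 2R and 3R.

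**Figure D4:**
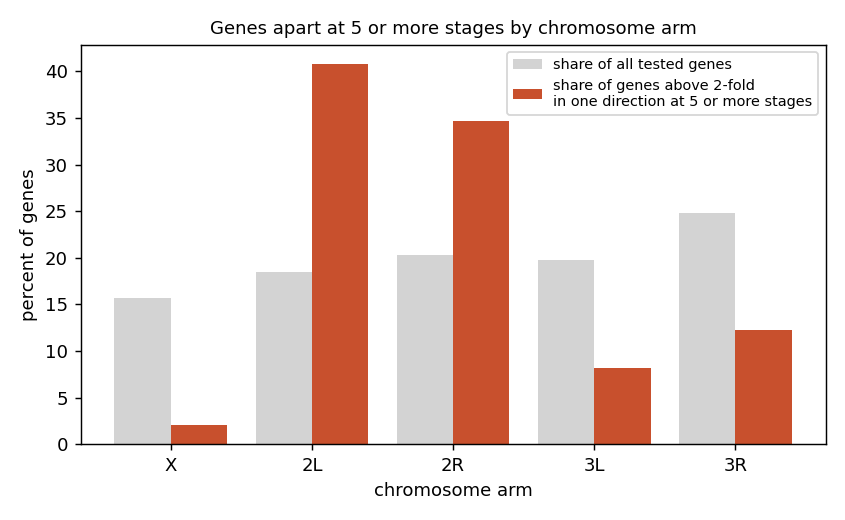
Percent of genes on each chromosome arm, for all 12282 tested genes (grey bars) and for the 49 genes above 2-fold in one direction at 5 or more stages (coloured bars). Arms 2L and 2R hold 40.8% and 34.7% of the 49. The Y chromosome, with 1 of the 49, and chromosome 4, with 0, are not shown.

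Families of the 6 genes were counted without the 6 themselves. Of 51 tested family genes, 9 (17.6%) differed at any stage, against 24.8% of all tested genes. By limma-voom 15 did, a count to which the 24.8% does not apply. Over all genes, calls counted once per stage rose by limma-voom from 2793 to 4812 higher in mutants and from 1835 to 2825 lower. At 4 or more stages 0 family genes differed by limma, where 0.537% of all tested genes did. At an unadjusted p under 0.05 also 0 did, and by limma-voom 1, with no share over all genes counted. Among 21 kinesins, *Klp59C* and *Klp59D* were higher in mutants at 2 stages each, and these names and those that follow were picked after their values were seen. Among 7 G protein alpha subunits *CG17760* was lower, and among 5 snoRNA host genes *Uhg2* and *Uhg8* were lower at 1 stage each. Of 7 FKBP genes 0 differed, by limma at an adjusted or an unadjusted p and by limma-voom. Of 11 aldo-keto reductases, *ARY*, *CG12224*, *CG12766* and *CG18547* were lower at 1 stage each.

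The genes with the most similar pattern were found by Pearson's r of mean log2(FPKM + 1) over the 16 group means. These points share the difference between genotypes that chose the 6 genes, and r is given as a description. For *Klp54D* they were *snoRNA:U3:54Ab* (0.90) and *CG33465* (0.88). For *CG30054* they were *phr* (0.90), a DNA repair photolyase, and *CG5961* (0.82). *Uhg1* was closest to *CG5961* (0.92) and *CR44135* (0.88), and *CR44417* to *CG1444* (0.89) and *CG33296* (0.87). *CG14715* was closest to *mre11* (0.92), a gene of DNA break repair, and *CG40191* (0.89). *CG3397* was closest to *CG31955* (0.88) and *Cyp6d2* (0.84), a cytochrome P450 gene.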

How the data were processed

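Poly(A) RNA of pooled whole animals was sequenced in 48 libraries, and the authors deposited 1 table of FPKM for 17558 genes. The submitters' processing notes name HISAT2 (2.0.5) and featureCounts (1.5.0-p3) with build BDGP6, while the paper's methods name STAR and htseq-count. Which of them made the table, and whether counting used strand, is not given in the sources used here. Each FPKM times gene length gave whole reads (100% within 0.001 read), and these recovered reads served for depth, counting intervals and limma-voom only. All 48 columns were matched to a sample by its description, and 0 were left unmapped.

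Values were analysed as log2(FPKM + 1), pseudocount 1, with the filter of at least 3 FPKM in 1 library (12282 genes). Tests were two-sided with limma 3.58.1 (lmFit, eBayes with trend) in R 4.3.3, and Benjamini-Hochberg adjustment ran over all tested genes. A gene was called at an adjusted p under 0.05 and above 2-fold. Genotypes were fitted per stage and stages within a genotype in 1 fit of 24 libraries. The steps were tested on simulated data. The paper's methods used DESeq2 on counts. Since FPKM were deposited, limma on log2 values was the main test and limma-voom, fitted to recovered reads, an alternative based on counts. Same-numbered replicates were not treated as pairs. Gene models came from BDGP6.54, in which 16977 of 17252 matched identifiers (98.4%) had the same start and end. Figures were drawn with Python 3.11.15, pandas 2.3.3, numpy 2.4.6 and matplotlib 3.10.9.

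The genes named were the 6, the 5 that came next by their smallest difference, and neighbours and family genes called at 4 or more stages. Of those 5, 3 met the rule by means alone, and why they are not among the 6 is not given. Also named were the 2 most similar genes of each by Pearson's r over 16 group means, and *Ptth*. Genes named in the windows, in the pooled comparison and in the families were picked after their values were seen. The 6 genes and the lists were chosen with earlier results of these data known. Alternatives were a pseudocount of 0.1, no filter or a filter of 3 FPKM in 3 libraries, quantile normalization, limma-voom, a limit of 1.5-fold, a replicate block and leaving out each replicate. The comparison at equal hours, the adjacent stages, the limit of the stage test to genes at 3 FPKM within a genotype and the values without mutant replicate 3 were added after the data were seen.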

Additional observations from a re-analysis of the deposited data

How the results depend on the processing

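All 6 genes stayed above 2-fold in one direction at all 8 stages under a pseudocount of 0.1, quantile normalization, limma-voom and without each replicate number. No filter, the filter on 3 libraries and the replicate block leave the difference of a gene's means as it is, so they could not change this. None of their 48 differences changed sign. Of the 48, 39 moved by more than 1 SD with a pseudocount of 0.1, 40 by limma-voom and 28 by quantile normalization. A pseudocount of 0.1 changes only the added constant. With it *Klp54D* ran from 2.33 to 6.18, against 1.61 to 4.21 as reported, and *CR44417* from 1.31 to 3.15, against 1.18 to 2.83. Why values moved by limma-voom and quantile normalization was not tested. The difference of *CG30054* at P4 was -9.08 by limma-voom, where mutants had 1 read. In 288 fits without 1 library, the largest ratio between a log2 difference and the reported one was 1.18. The limit of 1 SD was not used for these fits, since leaving out 1 of 3 libraries cannot move a difference that far.

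The rule returned 15 genes by limma-voom in place of 9, and 7 to 8 without a replicate number. A version of the rule that also asks for an adjusted p at each stage is not reported, since that p would test the values that chose the genes. Family genes differing at any stage were 9, 15 by limma-voom and 26 above 1.5-fold. Neighbours differing at any stage were 14, 26 above 1.5-fold and 7 to 11 without a replicate number. The share of all tested genes differing at any stage was counted for the reported setting only (24.8%). The counts under other settings therefore have no share beside them and show nothing particular to these genes. With the replicate number as a block, the counts were 8 family genes and 12 neighbours. The stage test with this block still called the 5 of the 6 genes that reached 3 FPKM in wild type and the 4 that did in mutants. Without the block 99.3% and 98.7% of such genes were called, and the share with it was not counted. The replicate numbers did not pair the samples: deviations of same-numbered libraries correlated from -0.43 to 0.47, and 6 of 24 pairs exceeded 0.1. Depth limits *CG30054* in mutants and *Klp54D* in wild type most, at 1 to 36 and 10 to 121 reads per group.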
